A study of Rattus norvegicus with 20 samples.

Results

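The let-7 passenger strands are the 3p arms of the let-7 hairpins, the arms that are usually discarded when the 5p guide is loaded. They were followed here by name, as all reads assigned to 1 of 8 rat miRNAs (rno-let-7a-1-3p, rno-let-7a-2-3p, rno-let-7b-3p, rno-let-7c-1-3p, rno-let-7c-2-3p, rno-let-7d-3p, rno-let-7e-3p, and rno-let-7f-1-3p), out of 617 miRNAs with reads and 280 with reads on a 3p name. The rule uses names and no measured value, but it was written with earlier results of these data known. All 8 names had reads. Those of let-7a-1-3p and let-7c-2-3p were the same reads, 10546 in all with 0 assigned to either name alone, because the 2 mature sequences are identical, so the 8 names give 7 measurements.

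The libraries came from punches of the adBNST, the anterodorsal part of the bed nucleus of the stria terminalis, a small forebrain nucleus that takes part in anxiety and stress responses and differs between the sexes. Sprague-Dawley rats were weaned on postnatal day 21 and kept for 6 weeks either in groups of 3 littermates of the same sex (group housed, GH) or alone (socially isolated, SI), and were tested in an elevated plus maze at 9 weeks. Each combination of housing and sex (4 groups) had 5 rats, with no drug or transgene in any group, and the females were selected for RNA integrity and to cover a range of estradiol levels. The sex of the 2 SI rats numbered I17 is in doubt, since sample labels and names of the files contradict each other, and the labels were followed.

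Every let-7 hairpin is cut by Drosha and then Dicer into a duplex. The 5p strand carries the seed that silences let-7 targets such as Lin28 and Hmga2, is plentiful in differentiated cells, and is abundant in adult brain. The opposite 3p strand has its own seed and, where it escapes degradation, can also be loaded. Most let-7 precursors leave Drosha with a 3′ overhang that is 1 base shorter than usual and receive a U from terminal uridylyl transferases before Dicer cuts them. The precursors of let-7a-2, let-7c-1, and let-7e have the usual overhang and do not need that step.

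The mature sequences are shown because the members differ by few bases, and those bases decide which reads can be told apart. Capitals mark the seed, bases 2 to 8 from the 5′ end, and 7 of the 8 sequences are those of RefSeq (GRCr8), while that of let-7c-1-3p is the annotated form in the deposited files.
rno-let-7a-1-3p: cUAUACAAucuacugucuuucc
rno-let-7c-2-3p: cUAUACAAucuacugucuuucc
rno-let-7b-3p: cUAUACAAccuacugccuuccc
rno-let-7f-1-3p: cUAUACAAucuauugccuucc
rno-let-7d-3p: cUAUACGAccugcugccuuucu
rno-let-7e-3p: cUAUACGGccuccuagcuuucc
rno-let-7c-1-3p: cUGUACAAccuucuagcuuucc
rno-let-7a-2-3p: cUGUACAGccuccuagcuuucc
The 8 names held 5 seeds. UAUACAA was shared by let-7a-1-3p, let-7c-2-3p, let-7b-3p, and let-7f-1-3p, and each of the other 4 names had a seed of its own. The 5p guides, in contrast, share the seed GAGGUAG, as in let-7d-5p.
rno-let-7d-5p: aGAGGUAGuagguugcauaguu
Position by position, let-7a-2-3p was closer to let-7c-1-3p and to let-7e-3p, with 20 of 22 bases the same in each case, than to let-7a-1-3p, with 16 of 22. The letter of the guide therefore does not group the passengers. The hairpin of let-7d, the member with the most reads, shows both arms in capitals, the guide on the left and the passenger on the right.
Mirlet7d: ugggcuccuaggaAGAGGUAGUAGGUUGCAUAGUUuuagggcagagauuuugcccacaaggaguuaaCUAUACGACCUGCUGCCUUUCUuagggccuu
In GRCr8 the genes of let-7a-1, let-7f-1, and let-7d lie on chromosome 17, those of let-7b and let-7c-2 on chromosome 7, let-7e on chromosome 1, let-7a-2 on chromosome 8, and let-7c-1 on chromosome 11.

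Libraries held 3428930 to 11383055 miRNA reads (median 6705043), and the passengers together took 0.164 to 0.509% of them. As a check on the tissue, the neuronal and brain miRNAs miR-124-3p, miR-9a-5p, and miR-128-3p summed to 82219 to 186847 RPM (reads per 1000000 miRNA reads) in all libraries. Levels below are RPM, each count divided by the library size after TMM scaling. They compare rats, and since all mature miRNAs here have nearly the same length, they also allow an order between names, although ligation of adapters can favor some sequences over others. Sequences read only once in a library are not in the files.

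By mean level the 7 measurements covered 3 orders of magnitude, from 1.62 to 2495 RPM, and let-7d-3p alone made up most of the passenger reads. Its level ranged from 1187 to 5471 RPM over the 20 rats, with a median of 2239 RPM, and it ranked 60th of the 499 miRNAs tested by mean level. It made up 80.6 to 91.5% of the summed passenger level (median 86.4%). In the second place, let-7b-3p ranged from 119 to 501 RPM (median 227 RPM). The level of let-7d-3p was above that of let-7b-3p in 20 of 20 rats, by 7.75 to 17.2 times, and their ranges did not overlap.

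The order below let-7b-3p was less even. The shared reads of let-7a-1-3p and let-7c-2-3p ranged from 32.8 to 170 RPM (median 74.7 RPM) and were below let-7b-3p in 20 of 20 rats, by 1.66 to 15.2 times. They were above let-7e-3p in 17 of 20 rats, and let-7e-3p ranged from 15.97 to 85.9 RPM (median 49.2 RPM), so these neighbors in the order overlapped. The level of let-7c-1-3p was 6.27 to 60.0 RPM (median 14.3 RPM), below let-7e-3p in 19 of 20 rats.

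The last 2 members were near the limit of detection. Between 0 and 108 reads of let-7f-1-3p were found in a library, with 10 or more in 15 of 20 libraries and none in 4. For let-7a-2-3p there were 209 reads in all 20 libraries together, with 10 or more in 8 and none in 10. Of these members let-7f-1-3p was the higher in 14 of 20 rats. All 7 measurements passed the filter of at least 10 counts in at least 5 libraries, but these low members passed it through some groups only, and a fitted fold change for them depends on how zeros are treated.

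**Figure D1:**
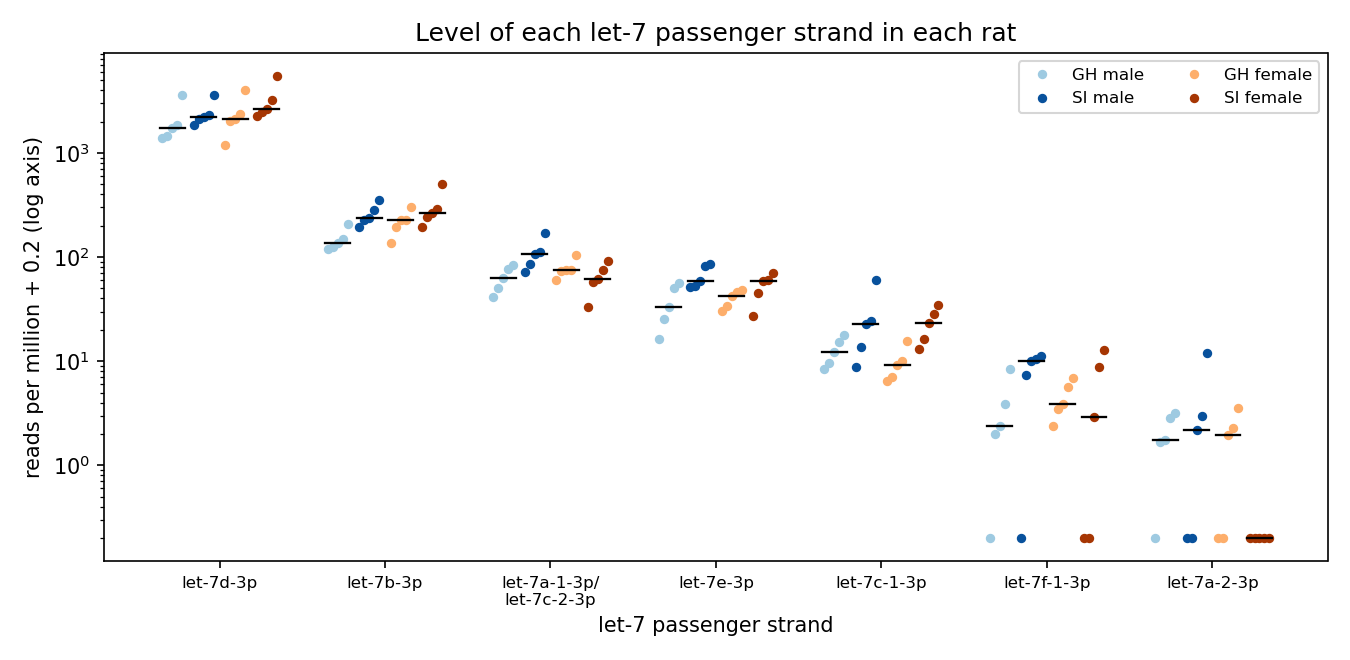
Level of each let-7 passenger strand in each rat, as RPM plus 0.2 on a log axis. Each point is a rat, colored by group (n = 5 a group), and black bars are group medians. Points on the bottom line are libraries listed at 0. For let-7a-2-3p these are 10 libraries, those of all 5 SI females, 2 GH females, 2 SI males, and 1 GH male. The level of let-7d-3p lies above every other member in every rat.

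Compared with their guides, the passengers were rare. For each read of let-7d-3p there were 8.34 reads of let-7d-5p in the median rat, so the passenger made up 6.61 to 20.5% of the reads of this pair. The corresponding median was 105 guide reads for let-7b-3p, 387 for let-7e-3p, 1637 for the shared reads of let-7a-1-3p and let-7c-2-3p (against let-7a-5p and let-7c-5p summed), and 4762 for let-7c-1-3p. For let-7f-1-3p it was 11430. Among 185 pairs of arms, let-7a-2-3p had the lowest 3p to 5p ratio of all, let-7f-1-3p was 7th from the lowest, let-7c-1-3p 8th, the shared pair 11th, let-7e-3p 19th, let-7b-3p 34th, and let-7d-3p 58th. By the median over rats, 53.0% of the 185 pairs had more 5p than 3p reads. The guides let-7a-5p, let-7c-5p, and let-7f-5p can come from several hairpins, so these ratios do not describe a single precursor, whereas those of let-7b, let-7d, and let-7e do.

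**Figure D2:**
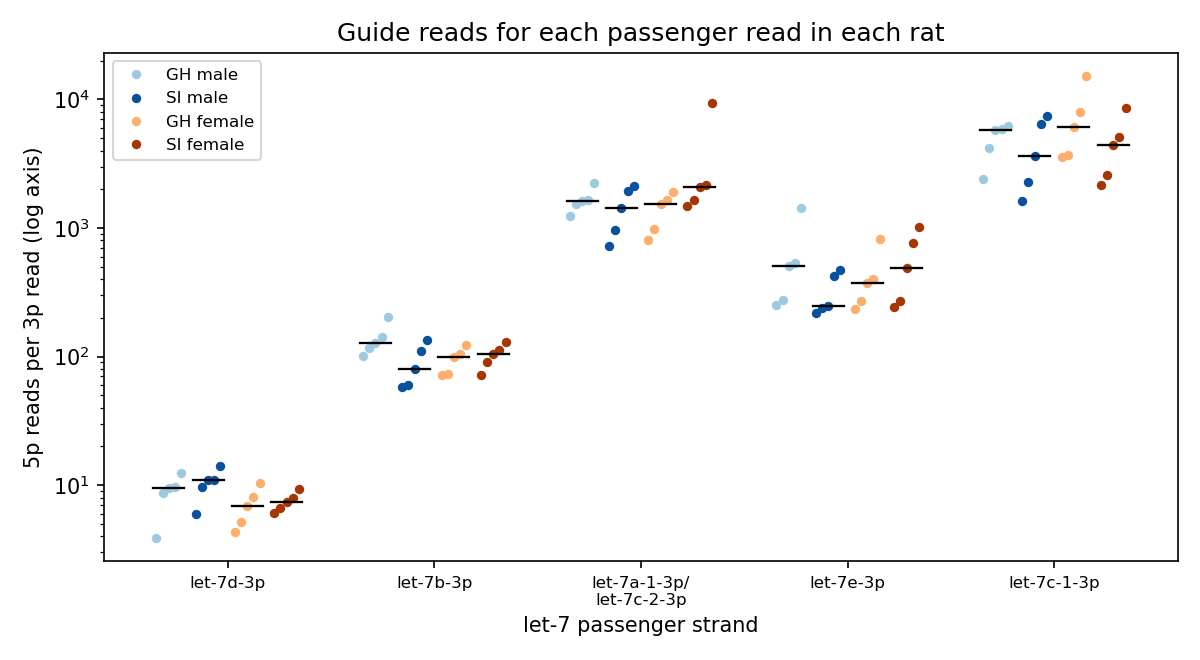
Guide (5p) reads for each passenger (3p) read in each rat, on a log axis, with 0.5 reads added to both counts. Points are rats colored by group, and black bars are group medians. The pair of let-7d lies lowest, at 3.87 to 14.1 guide reads, and the GH and SI groups overlap in every pair shown.

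The passengers also parted by their 3′ ends, and those of let-7a and of let-7c fell on both sides of that divide. The files give, for each sequence, the bases that were added after the part that matches the hairpin. A single added U, written T in the files, was the main form of let-7b-3p, of the shared reads of let-7a-1-3p and let-7c-2-3p, and of let-7f-1-3p. It was rare in let-7c-1-3p and in the minority in let-7e-3p. The leading forms are printed with the added base in capitals, together with the annotated leading forms of let-7e-3p, let-7c-1-3p, and let-7d-3p for comparison.
rno-let-7b-3p: ctatacaacctactgccttccT
rno-let-7a-1-3p and rno-let-7c-2-3p: ctatacaatctactgtctttcT
rno-let-7f-1-3p: ctatacaatctattgccttccT
rno-let-7e-3p: ctatacggcctcctagctttcc
rno-let-7c-1-3p: ctgtacaaccttctagctttcc
rno-let-7d-3p: ctatacgacctgctgcctttct
The form of let-7b-3p shown made up 72.5% of its 29892 reads, while the annotated form, which ends in C, made up 0.174%. For the shared pair, the form with the added U made up 55.7% of 10546 reads and the annotated form 23.7%. For let-7f-1-3p the form with the added U took 77.3% of 683 reads and was found in 15 libraries.

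Counted over all forms with exactly 1 added U, the share was 77.0% for let-7b-3p (95% Wilson interval 76.6 to 77.5%), 57.6% for the shared pair (56.6 to 58.5%), and 80.7% for let-7f-1-3p (77.5 to 83.5%). It was 11.4% for let-7e-3p (10.7 to 12.2%), 4.31% for let-7a-2-3p (2.28 to 7.98%, 9 of 209 reads from 1 library), and 0.0875% for let-7c-1-3p (0.0240 to 0.318%, 2 of 2286 reads). These intervals cover counting error only. By the background given above, the high shares in this list belong to precursors with the short overhang. The low ones belong to let-7a-2, let-7c-1, and let-7e, which have the usual one. The overhangs were not measured here, and their part in these shares was not tested. The list leaves out let-7d-3p, which is taken up below. It also leaves out let-7g-3p, whose low share departs from this match of shares with overhangs.

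The gap held in each rat. In let-7b-3p the share with a single added U ranged from 64.0 to 83.2% over the 20 rats, and in the shared pair from 39.6 to 86.3%. In let-7e-3p it ranged from 0 to 38.3% (median 8.64%), and in let-7c-1-3p it was 0 in 19 rats and 3.57% in the other. The lower of the first 2 was above the higher of the last 2 in 20 of 20 rats, by 22.7 to 64.0 percentage points (median 47.5). This is a description, since the members were set apart by the same shares.

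Among all 499 miRNAs tested, the median share of reads with an added U of any length was 3.67%, and the upper quartile was 10.2%. By this share let-7f-1-3p was 7th from the highest, let-7b-3p 8th, and the shared pair 16th. Of the members below them, let-7e-3p (11.7%) was 107th and above the upper quartile, let-7a-2-3p (4.31%) was 232nd, and let-7c-1-3p was 421st. The let-7 relatives outside the 8 names were not alike. A single added U was found in 78.2% of the 6272 reads of miR-98-3p and in 92.7% of the 451 reads of let-7f-2-3p. In let-7g-3p it was found in 9.27% of 248 reads, which were 23 reads of G15F, and in 0 reads in 10 of its 11 libraries. The let-7g precursor is not among those named above as having the usual overhang, so this low share departs from the match within the list.

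For let-7d-3p the files cannot answer the same question. Its annotated sequence already ends in U at base 22, and a templated U and an added U at that position give the same read. Of its 22-base reads with the annotated start, 84.6% ended in U, and 66.7% of its 320800 reads were the annotated form. The next forms were the one with A in place of the last U (9.65%) and the one lacking the last U (9.65%). The same holds for let-7i-3p, which is not among the 8 names and also ends in U in its annotation. A read in which the last base was substituted cannot be told apart from a read that lost a base and gained a U, so the shares of let-7b-3p and the shared pair rest on the files' reading of those bases. The 21-base form of let-7b-3p, which lacks the last C and has nothing added, made up 9.62%. In the hairpins of let-7c-1, let-7a-2, let-7a-1, and let-7c-2 the base after the annotated end is also U. A U added to the annotated form is therefore counted there as templated. The annotated form with 1 such U made up 7.13% of let-7c-1-3p, 9.57% of let-7a-2-3p, and 4.06% of the shared pair. The shares above leave these reads out.

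**Figure D3:**
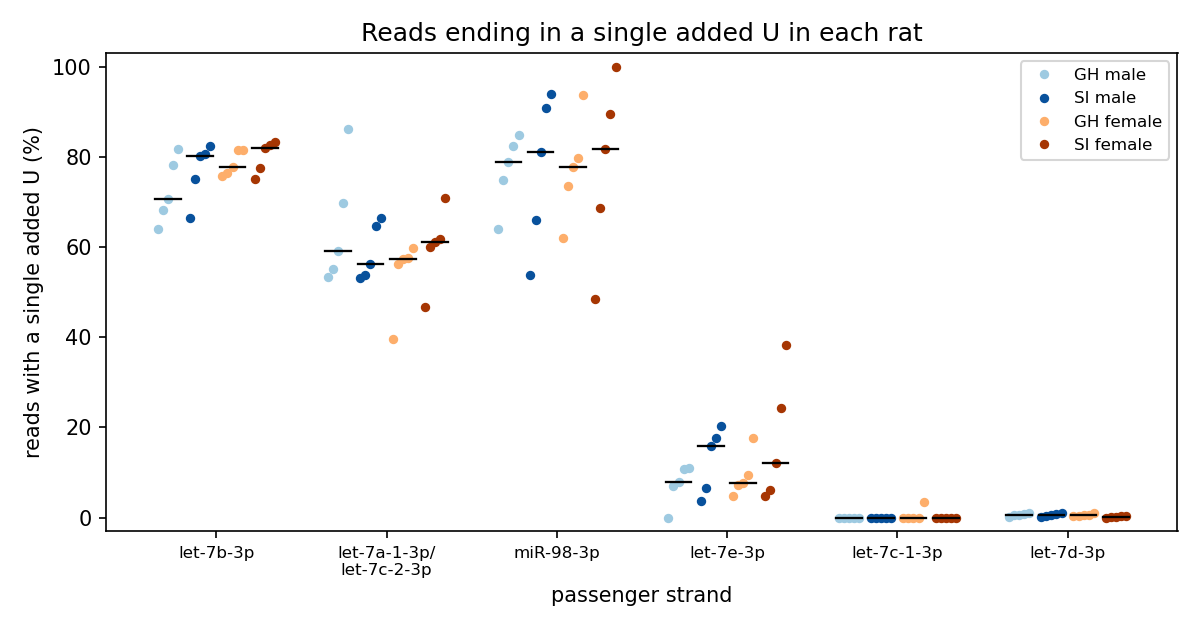
Share of reads with a single added U in each rat, in percent, for passengers with at least 20 reads in a library. Points are rats colored by group, and black bars are group medians. The points of let-7b-3p, the shared pair, and miR-98-3p lie at 39.6% or above, those of let-7e-3p, let-7c-1-3p, and let-7d-3p at 38.3% or below. The points of let-7d-3p cannot be compared with the others, since its annotated sequence already ends in U.

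An added U leaves the seed as it is, but a shifted start changes it. Start-shifted reads made up 5.74% of let-7d-3p, and the most frequent of them lacked the first C and came to 3.41% of all its reads. Capitals mark bases 2 to 8 of that form, the seed it would have.
rno-let-7d-3p: tATACGACctgctgcctttct
Start-shifted reads were 1.74% in the shared pair, 2.84% in let-7b-3p, 2.10% in let-7c-1-3p, and 7.60% in let-7e-3p, against a median of 3.89% over the 499 miRNAs.

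**Figure D4:**
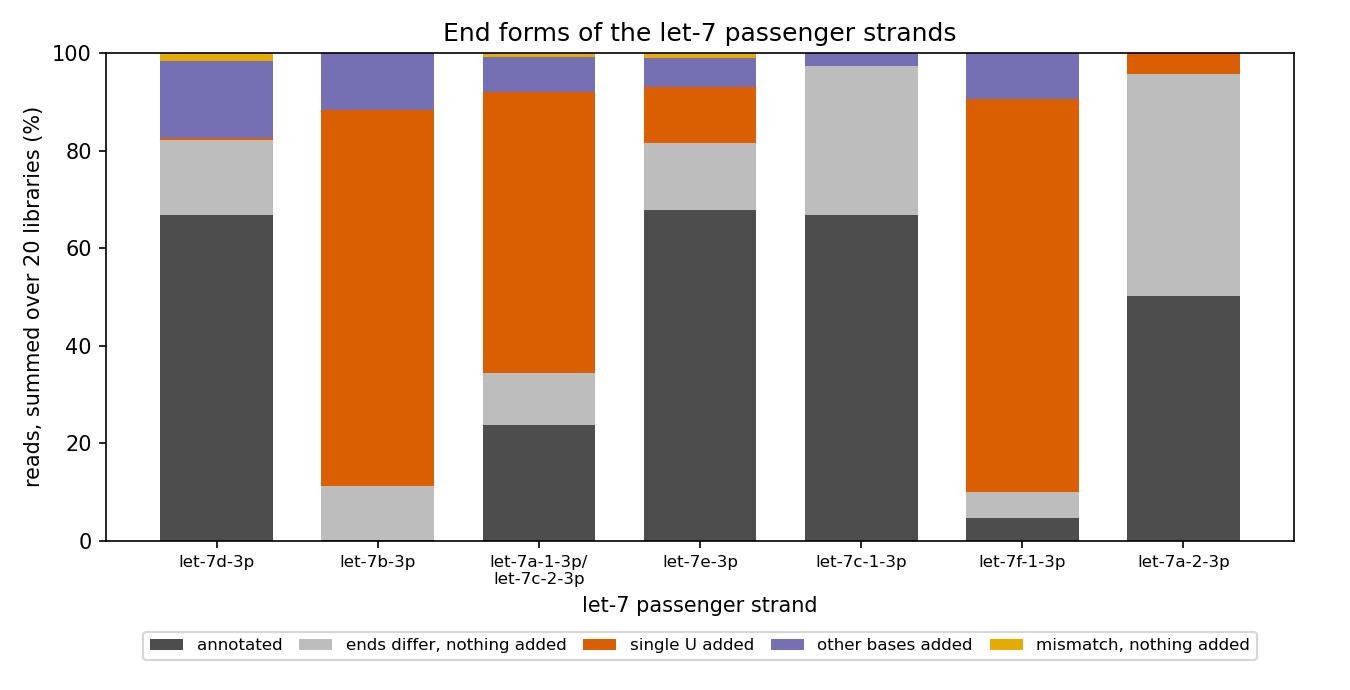
Forms of each passenger as a share of its reads summed over the 20 libraries, in percent. The bar parts are the annotated sequence, reads whose ends differ with nothing added, reads with a single added U, reads with other added bases, and reads with a mismatch only. The annotated form is the largest part in let-7d-3p (66.7%), let-7e-3p (67.8%), let-7c-1-3p (66.8%), and let-7a-2-3p (50.2%), and the single added U in the other 3. For let-7a-2-3p, 87 of its 105 annotated reads came from I17M, and without that library 77.9% of its 122 reads were those whose ends differ and 14.8% the annotated form.

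Neither end measure passed the test for housing in any member that could be tested. Shares were compared on the log2 odds scale with limma for the 299 miRNAs with at least 20 reads in every library, which included 5 of the 7 measurements. For the share with any added base, 0 of 5 passed in males, where 0% of the 299 miRNAs did, and 0 of 5 in females, where again 0% did. At an unadjusted p under 0.05 the numbers were 29 and 30 of the 299 and 0 members in both sexes. For the share of the annotated form, 0 of 5 passed in males against 2.01% of the 299, and 0 of 5 in females against 0%. GH and SI groups did not overlap for 1 member in 1 sex, the tailed share of let-7b-3p in females, which was 85.8 to 91.0% in GH and 91.4 to 93.2% in SI rats. In males it overlapped, with 77.3 to 94.8% in GH and 81.7 to 90.0% in SI rats. Groups that did not overlap were found for 1.67% of the 299 miRNAs in the tailed share in females and 2.68% in males, and for 3.68% and 7.02% in the annotated share. The tailed share of let-7b-3p had a median of 89.2% in GH males and 85.8% in SI males (log2 odds difference -0.35, SE 0.35, adjusted p = 0.695 by limma), and of 89.8% in GH females and 92.0% in SI females (0.56, SE 0.35, adjusted p = 0.583 by limma).

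Housing was then compared in the levels, with edgeR's quasi-likelihood test over all 499 miRNAs and Benjamini-Hochberg adjusted p-values. Averaged over the sexes, let-7b-3p and let-7c-1-3p rose in SI rats, and the other 5 measurements did not pass. The 2 of 7 that passed stand against 17.6% of all 499 miRNAs, and against 7.41% that passed with the higher level in SI rats. Within a sex, 0 of 7 passed in males (4.01% of the 499 did) and 0 of 7 in females (0.401% did). At an unadjusted p under 0.05 there were 3 members and 114 miRNAs in all in males, and 2 members and 104 miRNAs in females, of which let-7a-2-3p was listed at 0 in all SI females and the other was let-7c-1-3p. The median log2 fold change of the 7 was 0.87 in males and 0.38 in females, against -0.01 and -0.13 over the 499. By DESeq2, run as an alternative, 2 members passed in males, 1 in females, and 3 in the average, where 9.91%, 11.5%, and 22.6% of the 585 miRNAs with a p-value did. DESeq2 gave an adjusted p to 4 of the 7 members in males and to 5 in females and in the average.

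The first of the members that rose was let-7b-3p. Its level was 119, 124, 138, 149, and 209 RPM in the GH males and 196, 226, 238, 283, and 353 RPM in the SI males. It was 138, 195, 227, 229, and 302 RPM in the GH females and 195, 243, 265, 288, and 501 RPM in the SI females. In males 4 of 5 SI rats were above every GH rat, in females 1 of 5, and the groups overlapped in both sexes. The log2 fold change was 0.63 (SE 0.19, adjusted p = 0.0259, edgeR) in the average of the sexes, 0.81 (SE 0.27, adjusted p = 0.0873) in males, and 0.45 (SE 0.27, adjusted p = 0.353) in females. Without SI female I16F, the rat at 501 RPM, the female value was 0.22. In exact permutation tests of the log2 level, two-sided and unadjusted, p was 0.0159 in males, 0.198 in females, and 0.00328 with both sexes. Its guide, let-7b-5p, had a log2 fold change of 0.29 in the same average (SE 0.25, adjusted p = 0.464).

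The other was let-7c-1-3p, which was low and rested on 31 to 442 reads per library. Its level was 8.19, 9.47, 12.1, 14.97, and 17.8 RPM in the GH males and 8.66, 13.6, 22.4, 24.0, and 60.0 RPM in the SI males. It was 6.27, 6.84, 9.03, 9.83, and 15.4 RPM in the GH females and 12.9, 16.2, 22.9, 27.9, and 34.7 RPM in the SI females. The SI females were above the GH females except for an overlap of 1 rat on each side, while the SI males reached from the lower GH males to the highest level of all. The log2 fold change was 1.16 (SE 0.37, adjusted p = 0.0340, edgeR) in the average, 1.04 (SE 0.52, adjusted p = 0.224) in males, and 1.27 (SE 0.52, adjusted p = 0.148) in females. Exact permutation tests, two-sided and unadjusted, gave 0.159 in males, 0.0159 in females, and 0.00375 with both sexes.

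The highest of these levels, 60.0 RPM, was that of the rat labelled I17M, whose sex is in doubt. With both I17 libraries left out, 0 of 7 members passed in the average, let-7b-3p at a log2 fold change of 0.57 and let-7c-1-3p at 0.93. Without I17M alone 0 of 7 passed as well, and the log2 fold change of let-7c-1-3p in males was 0.43. Without GH female G16F, 0 of 7 passed, with let-7b-3p at 0.57 and let-7c-1-3p at 1.15. Without any 1 of G18M, G19M, G21M, G17F, and I12F, 1 of 7 passed, since let-7c-1-3p was lost. With the sexes of the I17 libraries exchanged, both members passed.

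The remaining members gave no call by edgeR, while DESeq2 called the shared pair in males (adjusted p = 0.0495) and let-7e-3p in the average. The shared reads of let-7a-1-3p and let-7c-2-3p were at 40.9, 50.7, 63.2, 76.3, and 83.9 RPM in the GH males and at 72.5, 85.2, 106, 111, and 170 RPM in the SI males, so 4 of 5 SI males were above every GH male. In females the order was not the same, with 60.1, 73.0, 74.3, 75.1, and 105 RPM in GH and 32.8, 57.9, 62.0, 75.1, and 92.0 RPM in SI rats. The log2 fold change was 0.79 in males (SE 0.30, adjusted p = 0.115, edgeR) and -0.28 in females (SE 0.30, adjusted p = 0.655), which was -0.08 without SI female I16F. The difference between these, the interaction of housing and sex, was -1.07 (SE 0.43, unadjusted p = 0.0199, adjusted p = 0.506, edgeR), so it did not pass over all miRNAs. With a correction for GC content within libraries the female value turned to 0.44. That fit held the 494 miRNAs with a GC value, and their median was 0.19, against -0.13 for the 499 without the correction.

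For let-7e-3p the levels were 15.97, 25.3, 32.8, 50.4, and 55.8 RPM in the GH males and 51.8, 52.7, 58.2, 81.7, and 85.9 RPM in the SI males. In females they were 30.3, 33.9, 42.3, 45.9, and 48.0 RPM in GH and 26.9, 44.9, 59.1, 60.3, and 70.4 RPM in SI rats. In both sexes 3 of 5 SI rats were above every GH rat, and 1 SI female was below every GH female. The log2 fold change was 0.63 in the average (SE 0.25, adjusted p = 0.0831, edgeR), 0.87 in males, and 0.38 in females. By DESeq2 it passed in the average, at an adjusted p of 0.0323.

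The most abundant passenger, let-7d-3p, had the smallest log2 fold change in males among the 5 well-read measurements. Its levels were 1380, 1466, 1727, 1852, and 3603 RPM in the GH males and 1849, 2132, 2193, 2298, and 3604 RPM in the SI males. They were 1187, 2025, 2108, 2362, and 4034 RPM in the GH females and 2285, 2483, 2629, 3213, and 5471 RPM in the SI females. GH and SI rats overlapped in both sexes, and each of the 4 groups had 1 rat well above its others. The log2 fold change was 0.27 in males (95% interval -0.38 to 0.91), 0.46 in females (-0.19 to 1.103), and 0.36 in the average (-0.09 to 0.82, adjusted p = 0.275, edgeR). These values turn on the high rats. The male value was 0.05 without SI male I17M and 0.59 without GH male G16M, and the female value 0.22 without SI female I16F and 0.74 without GH female G15F. Its guide let-7d-5p rose in the average, at 0.66 (SE 0.16, adjusted p = 0.00767, edgeR).

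Of the low members, let-7f-1-3p had 0, 7, 18, 30, and 41 reads in the GH males and 0, 47, 74, 82, and 108 in the SI males. In females it had 10, 19, 28, 30, and 42 reads in GH rats and 0, 0, 18, 45, and 84 in SI rats. No direction can be read from these counts, as the groups overlapped in both sexes. For let-7a-2-3p the counts were 0, 6, 12, 15, and 22 in the GH males, 0, 0, 9, 18, and 87 in the SI males, and 0, 0, 11, 12, and 17 in the GH females. It was listed at 0 in all 5 SI females, as in 2 of 5 GH females. The 87 reads were again those of I17M. Its adjusted p was 0.111 in females (edgeR), and no fold is given against a group at 0.

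No member had GH and SI levels that did not overlap, in a table where 13.8% of the 499 miRNAs had GH and SI groups that did not overlap in males and 2.0% in females. For the interaction 0 of 7 members passed (0.401% of the 499 did), and 2 members had an unadjusted p under 0.05, the shared pair and let-7a-2-3p with its SI females at 0. Between the sexes, 0 of 7 passed in GH rats, as did 0% of the 499, and 0 of 7 in SI rats, again as 0% did (edgeR). At an unadjusted p under 0.05 there were 1 member and 12 miRNAs in GH rats and 2 members and 49 miRNAs in SI rats, the 2 again being the shared pair and let-7a-2-3p. By DESeq2 0 of 7 members passed in either. The largest of these sex differences among the well-read members was that of the shared pair in SI rats, at -0.77 in females against males (SE 0.30, adjusted p = 0.361, edgeR).

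**Figure D5:**
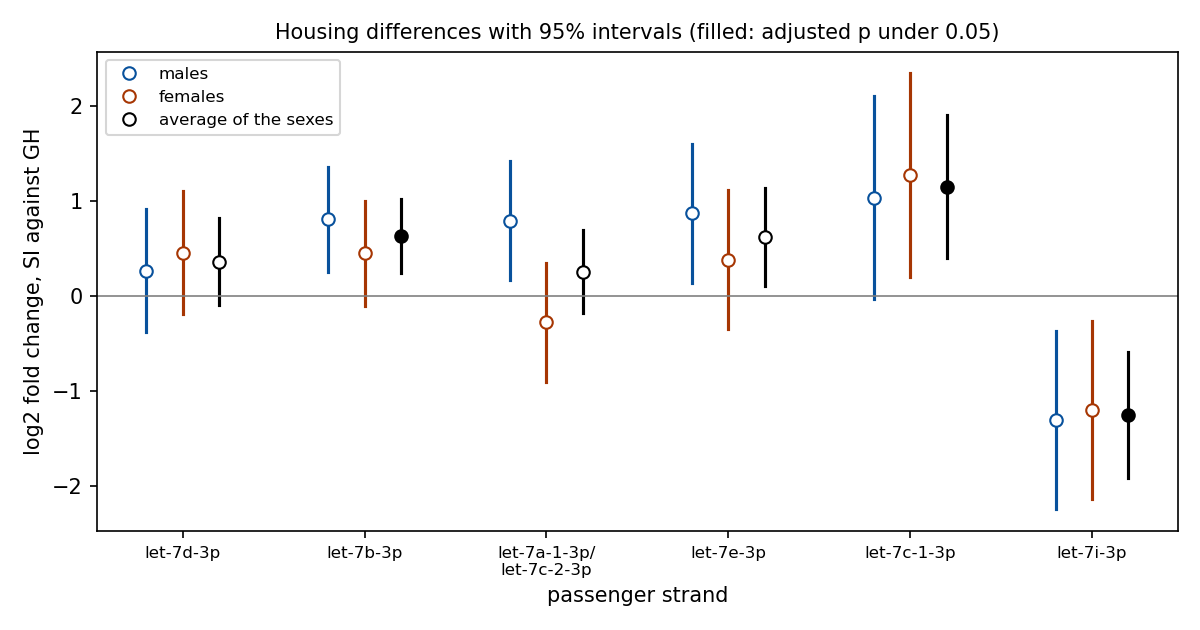
Log2 fold change of the level in SI against GH rats with its 95% interval, by edgeR, for males, for females, and for their average. Filled points have an adjusted p under 0.05. The averages of let-7b-3p (0.63) and let-7c-1-3p (1.16) are filled above 0, and that of let-7i-3p (-1.25), which is not among the 8 names, below 0. The low members let-7f-1-3p and let-7a-2-3p are left out.

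The guides were on the same side. All 9 guides of the let-7 and miR-98 family had positive log2 fold changes in males and in females, and 5 of 9 rose in the average (let-7a-5p, let-7d-5p, let-7f-5p, let-7g-5p, and miR-98-5p). Of all 499 miRNAs, 17.6% passed in the average, and 7.41% passed with the higher level in SI rats. Without the I17 libraries 4 of 9 guides rose. With the GC correction 8 of 9 guides rose, in a fit whose median log2 fold change over the miRNAs fitted was 0.20. Of 4 family passengers outside the 8 names, 1 passed in the average. It was let-7i-3p, which fell, with 18.2 to 40.5 RPM in the GH males and 7.60 to 17.3 RPM in the SI males, groups that did not overlap. In females it was at 34.2 to 86.7 RPM in GH and 5.18 to 44.6 RPM in SI rats, and its log2 fold change in the average was -1.25 (SE 0.32, adjusted p = 0.0111, edgeR). Passengers of the family therefore did not all move one way, and the direction of let-7i-3p was the same under every scaling run, with log2 fold changes of -1.28 to -1.25 in the average.

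Of 11 arms of neighbors in the let-7 clusters (miR-99a, miR-99b, miR-100, miR-125a, and miR-125b), 10 were tested, 1 rose and 1 fell in the average. This is near the share over all 499 miRNAs, of which 17.6% passed in the average. The one that rose was miR-125b-1-3p, at 0.55 (SE 0.19, adjusted p = 0.0493, edgeR), a call close to the threshold. It was lost without the I17 libraries (0.47, adjusted p = 0.124, edgeR). It was also lost with no count filter (edgeR adjusted p = 0.0504), with the I17 labels exchanged (0.0507), and with reads of a single miRNA only (0.0544). The one that fell was miR-99a-5p, at -0.76 (SE 0.20, adjusted p = 0.0129, edgeR, and 0.0506 without the I17 libraries), whose gene neighbors that of let-7c-1. In these libraries let-7c-1-3p was thus higher and miR-99a-5p lower in SI rats.

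Summed levels of some markers of other cells in the punch also differed between GH and SI rats, without a test. A sum follows its most abundant members, and the levels of the single miRNAs are not given here. Of the 499 miRNAs, 13.8% had GH and SI groups that did not overlap in males and 2.0% in females. The 4 vessel miRNAs (miR-143-3p, miR-145-5p, miR-126a-3p, and miR-126a-5p) summed to 10473 to 15173 RPM in the GH males and 4309 to 7208 RPM in the SI males, and to 11376 to 21974 and 2130 to 14869 RPM in the GH and SI females, groups that overlapped in females only. The 4 miRNAs of red blood cells summed to 1007 to 1362 RPM in the GH males and 1493 to 3118 RPM in the SI males, and to 795 to 1456 and 1422 to 4034 RPM in the GH and SI females. The 7 miRNAs of choroid plexus and ventricle lining reached 18226 RPM in SI male I20M, against 847 to 5245 RPM in the other groups, and without that rat 2 of 7 members passed in the average as before. The summed lists for oligodendrocytes and for immune cells overlapped between GH and SI rats in both sexes. The part of these in the differences of the passengers was not tested, and in bulk tissue fewer cells of a type and less RNA per cell cannot be told apart.

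The ratio of passenger to guide passed the test for housing in no member. It was compared with limma over 185 pairs of arms, of which 3.78% passed in males, 5.41% in females, and 13.5% in the average, and 0 of 7 members passed in any. At an unadjusted p under 0.05 there were 1 member and 31 pairs in males, 2 members and 50 pairs in females, and 1 member and 56 pairs in the average. The member in the average was let-7a-2-3p, also 1 of the 2 in females, and its SI females were listed at 0. For let-7b, there were 102 to 202 guide reads per passenger read in the GH males and 58.0 to 136 in the SI males, so 3 of 5 SI males had a higher passenger share than any GH male. The log2 ratio differed by 0.67 in males (95% interval 0.10 to 1.25, adjusted p = 0.178, limma) and by -0.12 in females (-0.69 to 0.46, adjusted p = 0.794). For let-7d the difference was -0.28 in males (-0.87 to 0.32) and -0.16 in females (-0.75 to 0.43). For let-7c-1 it was 0.35 (-0.97 to 1.67) and 0.63 (-0.68 to 1.95), wide intervals that include changes of more than 1 on the log2 scale in either sex. The shared pair had a log2 ratio lower by 0.95 in SI females (difference -0.95, 95% interval -1.84 to -0.06, adjusted p = 0.169, limma). Without SI female I16F the difference was -0.48 (adjusted p = 0.491, limma).

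Rats with more of a guide than their group did not in general have more of its passenger. Deviations of the log2 levels from the group means were correlated over the 20 rats for the 7 measurements, with 100000 permutations within groups. For let-7b, Pearson's r was 0.78 (p = 0.00066, adjusted over the 7 relations 0.0046) and Spearman's rho 0.62 (p = 0.0090, adjusted 0.063), and r was 0.65 without the 2 rats farthest from the median of the guide. For let-7d, r was 0.44 (permutation p = 0.075, adjusted 0.26) and rho 0.47 (p = 0.057, adjusted 0.20), with r at 0.23 without 2 rats. The other 5 relations had r between -0.21 and 0.26 and rho between -0.21 and 0.25, and none passed. Both arms of a pair come from the same library and share its scaling.

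By Spearman's rho over the 20 rats, the miRNAs outside the family and its clusters whose levels most resembled that of let-7d-3p were miR-485-3p (rho = 0.91), miR-1306-5p (0.86), and miR-1249 (0.84). They are named as a description, with the same libraries behind every value.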

How the data were processed

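Small RNA of adBNST punches was sequenced in 20 rats, from 215 ng of RNA with 22 PCR cycles per library. The authors removed adapters (cutadapt), merged identical reads, and assigned them with seqbuster against rat miRBase v21. The deposited values are raw counts per distinct sequence, with the files' own fields for mismatches, added bases, and end differences.

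Counts were summed per miRNA and library. A read matching several names counted for each, and let-7a-1-3p and let-7c-2-3p were merged. The 499 miRNAs with at least 10 counts in at least 5 libraries were fitted with edgeR 4.0.16 (TMM, quasi-likelihood test, 1 model of 4 groups) in R 4.3.3. Log2 levels used RPM + 0.2. Arm ratios (0.5 reads added) and form shares were fitted with limma 3.58.1. P-values were adjusted by the Benjamini-Hochberg method over every feature of a fit, with a threshold of 0.05. Comparisons of 5 with 5 rats used two-sided exact permutation tests over 252 assignments (smallest p 0.0079) in scipy 1.17.1, and tests over both sexes 63504. The fits were tested on simulated data.

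The miRNAs named are the 8 passengers, their guides and relatives, cluster neighbors, and the 3 miRNAs most like let-7d-3p. The members and lists were chosen with earlier results of these data known. Alternatives were DESeq2 1.42.0 (its test and its size factors), other filters, pseudocounts and read assignments, a GC correction, only the groups compared, the I17 labels exchanged, each rat left out, and a block on animal numbers. Leaving out both I17 libraries was chosen after the data had been seen. Each animal is a separate rat, and reads carry no molecular identifiers here, so intervals on reads cover counting error only.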

Additional observations from a re-analysis of the deposited data

Results flagged for a closer look

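In 1 of the 40 groups of 5 rats examined for levels and arm ratios of the 5 well-read measurements, a rat lay far from the others. The log2 ratio of the shared reads of let-7a-1-3p and let-7c-2-3p to their guides was -13.19 in SI female I16F, while the nearest SI female was at -11.06. Chance flags about 1 in 20 such groups. The same rat had the lowest level of these reads, 32.8 RPM, and the highest levels of let-7d-3p, 5471 RPM, and let-7b-3p, 501 RPM, of all 20 rats.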

How the results depend on the processing

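The counts of members called in the average of the sexes depended on the setting most. Against 2 of 7 as reported, 1 passed with no count filter, 4 with a GC correction within libraries, and 0 with both I17 libraries left out, and leaving out each rat in turn gave 0 to 2. In males, against 0 as reported, 1 passed with the GC correction, 1 when only the groups compared were fitted, and 2 with DESeq2, and leaving out each rat gave 0 to 1, the 1 being without SI female I16F. In females 1 passed with the GC correction and 1 with DESeq2. The counts over all miRNAs moved too. In males they were 43 with the GC correction, 89 with only the groups compared, 72 without I16F, and 58 of 585 with DESeq2, against 20 of 499. In females they were 66 with the GC correction and 67 of 585 with DESeq2, against 2 of 499. In the average they were 88 with no count filter, 123 with the GC correction, where the median of the 494 miRNAs fitted was 0.20, and 50 without the I17 libraries, against 88. The causes were not tested, and the fits with rats left out also held fewer rats. The log2 fold change of the shared reads of let-7a-1-3p and let-7c-2-3p in females reversed with the GC correction, to 0.44. The other fold changes of the 5 well-read measurements kept their direction in males, in females, and in the average under every setting run, and arm ratios, form shares, the interaction, and the sex comparisons kept 0 calls under theirs. Animal numbers occur in both housing groups for 2 pairs of males and 3 of females, whose deviations correlated at -0.31 to 0.09, so the numbers were not taken to pair rats. With the replicate block in those rats, 0 members passed in males and 0 in females, as in the same rats without it. Depth limits let-7f-1-3p and let-7a-2-3p most, with at most 108 and 87 reads in a library.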
